A study of Mus musculus with 8 samples.

Results

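The 500 regions described here are the strongest stretches of open chromatin that stood alone and were listed in control cells but not in cells in which Tcf7 and Lef1 were targeted for deletion. They were taken from peaks of ATAC-seq, an assay in which a transposase cuts accessible DNA. Peaks of the 4 deposited lists were merged where they shared at least 1 base, which gave 134830 regions outside the mitochondrial chromosome. A region qualified if both control lists and neither knockout list had a peak in it, if it lay over 1 kb from every gene start in the RNA tables, and if no other such region had its centre within 25 kb. Of 116312 merged regions over 1 kb from a gene start, 6182 were control-only (5.32%), and 4448 of these stood alone. The 500 with the highest −log10 q, taking the lower of the control lists, are the members. The −log10 q is the peak caller's measure of how significant a peak is against local background, and not of its height. The measured values of the peaks thus chose the regions, so their strength and their absence from the knockout lists are given as a description, without a test.

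The cells were mouse bone marrow LSK progenitors (Lin-, Sca-1+, c-Kit+) cultured on OP9-DL1, a stromal layer that presents a Notch ligand. Both groups carried CreER, a tamoxifen-inducible Cre recombinase. The control group was CreER+ WT and the knockout group CreER+ Tcf7-floxed, Lef1-floxed, and 4-OH tamoxifen was given to both from day 3 to day 5. Cells of the earliest T-lineage stage, DN1 (Lin-CD8-CD4-CD44hiCD25- ckit+), were sorted on day 7, with 2 control and 2 knockout libraries for RNA and for ATAC-seq. The labels do not say whether replicates came from separate mice or cultures, so the p-values measure the spread between these libraries, which may be technical. The promoter that drives CreER, the age of the mice and the number of mice pooled were not stated in the labels.

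TCF1, the product of Tcf7, and its relative LEF1 bind DNA through a high mobility group box and can recruit either coactivators, such as beta-catenin, or corepressors of the Groucho/TLE family. TCF1 is switched on by Notch signals when progenitors enter the T lineage, and it is known for binding in chromatin that becomes accessible in early thymocytes. Distal accessible regions often include enhancers, which can act on a gene start far away along the chromosome, and the nearest gene is not always the one they act on.

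Few members could be shown by sequence, because promoter windows from RefSeq (build GRCm38.p6) were the source of sequence used here. Of 486 members on the chromosomes of that table, 4 overlapped such a window (0.823%), against 0.600% of 3831 other isolated control-only distal regions on those chromosomes and 2.34% of distal regions listed in all 4 libraries. The RefSeq table holds starts that the RNA tables lack, so 8 members had a RefSeq start within 1 kb of their centre, and 65 within 5 kb. The 3 longest stretches are printed because they are the parts of members that can be read base by base. Each ends at the last base before the RefSeq start and is written 5′ to 3′ on the + strand. Capitals mark strings that were searched on both strands. For TCF/LEF factors the strings were CTTTGAT as well as CTTTGAA, and for RUNX factors TGTGGT or, with another letter inside, TGCGGT. The ETS string was GGAAGT, and for GATA factors the search used AGATAA together with the string TGATAA. E proteins were searched as CAGCTG or the similar CAGGTG, the AP-1 family as TGANTCA, the Notch partner RBPJ as TGGGAA, and the insulator protein CTCF as AGGTGGC or else AGGGGGC. A match is a string of letters and not a binding site.

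Member 106, before a Trpm1 start, chr7:64185231-64185458: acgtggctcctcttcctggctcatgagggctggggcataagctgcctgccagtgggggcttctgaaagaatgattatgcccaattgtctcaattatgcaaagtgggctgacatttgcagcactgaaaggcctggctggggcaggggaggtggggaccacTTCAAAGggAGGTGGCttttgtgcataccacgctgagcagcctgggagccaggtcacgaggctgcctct
Member 267, before a Sytl3 start, chr17:6658872-6659058: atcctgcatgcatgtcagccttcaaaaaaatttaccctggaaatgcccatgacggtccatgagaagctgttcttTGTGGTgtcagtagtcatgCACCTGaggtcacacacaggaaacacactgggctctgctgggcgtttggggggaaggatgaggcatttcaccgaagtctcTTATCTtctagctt
Member 416, before a Gm40084 start, chr3:87411236-87411409: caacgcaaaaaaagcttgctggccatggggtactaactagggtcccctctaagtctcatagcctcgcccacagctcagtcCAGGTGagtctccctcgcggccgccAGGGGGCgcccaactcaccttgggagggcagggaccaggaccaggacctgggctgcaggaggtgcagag

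The 228 bases of member 106 held 1 TCF/LEF string, TTCAAAG at base 160 of the printed stretch, followed by a CTCF string at base 169. Of RefSeq promoter stretches of that length, 6.67% held a TCF/LEF string and 13.1% a CTCF string. Member 106 was listed in control at −log10 q 65.0 and 47.7. Trpm1, which encodes a cation channel, stood at 0.712 and 0.570 TPM (transcripts per 1000000, a level scaled to gene length) in control and 0.116 and 0.131 in knockout, below the level at which RNA was tested. The 187 bases of member 267 held a RUNX string at base 75, an E protein string at base 94 and a GATA string at base 174, and no TCF/LEF string, which 5.30% of stretches of that length held. The 174 bases of member 416 held an E protein string at base 81 and a CTCF string at base 106, and likewise no TCF/LEF string (4.90% of stretches).

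Member 267 lies on the start that RefSeq gives for Sytl3, a synaptotagmin-like protein of vesicle transport, while the start in the RNA tables is 14.6 kb from its centre. Sytl3 was at 14.0 and 12.6 TPM in control and 0.760 and 1.64 TPM in knockout. Both knockout libraries were below both control libraries, by 2.73 on the log2(TPM + 1) scale (SE 0.244, limma adjusted p = 0.00122), an 11.1-fold difference in mean TPM. The region was listed at −log10 q 30.8 and 42.3 in control, with summits at 6659002 and 6659003, inside the printed stretch. Its nearest gene by the RNA tables' starts was Dynlt1f, a dynein light chain, 3.06 kb away, at 17.0 and 6.73 TPM in control and 9.10 and 5.15 in knockout (log2 change −0.58, SE 0.447, limma adjusted p = 0.344). The Dynlt1f levels of both genotypes overlapped. Sytl3 was singled out here for its place under a member and after its values were seen.

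Across the 500 members, −log10 q ran from 22.2 through a median of 36.1 to 190 in control list 1, and from 22.1 through 37.0 to 180 in control list 2. Fold enrichment over local background, the authors' value per peak, had medians of 12.6 and 12.7. Of the members, 231 had the higher −log10 q in list 1 and 269 in list 2, and the logarithms of both correlated across the 500 members at r = 0.855, a description of regions chosen on both lists. At the edge of the choice, members 499 and 500, near Cnr1 and Il4, had a lower −log10 q of 22.13, and the next 2 regions, near 2010111I01Rik and Mir378c, had 22.12 and 22.10. The 500th therefore differs from the 501st by almost nothing.

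**Figure D1:**
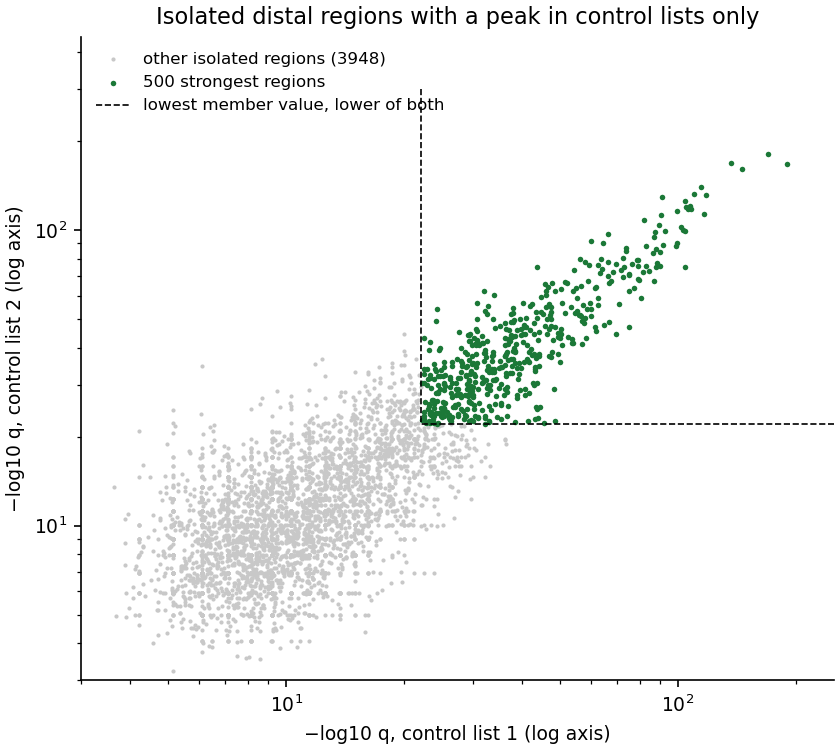
Each point is 1 isolated distal region with peaks in both control lists and neither knockout list, placed by its −log10 q in control list 1 (horizontal, log axis) and control list 2 (vertical, log axis). The 500 members (green) lie above and to the right of the dashed lines at the lowest member value of 22.1, and the 3948 other isolated regions (grey) have at least 1 list at or below it.

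The members were sharply placed. They were 208 to 788 bases wide with a median of 329, and 497 of them consisted of 1 peak in each control list. The summits of both lists were a median of 17 bases apart, within 25 bases for 310 members and over 100 bases for 4. The other isolated control-only regions had a median width of 232 bases, the 1734 control-only regions that had another within 25 kb 244, and distal regions listed in all 4 libraries 346. Members were chosen for a high lower −log10 q in control, so their median of 32.1 follows from the rule. The median was 24.8 for distal regions in all 4 lists, not chosen for strength, and 8.14 for the other isolated ones, left below the cut. The clustered control-only regions reached 194, so members are the strongest of the isolated regions and not of all control-only regions.

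Absence from a knockout list means that no peak passed the authors' threshold there, since signal below it is not in these files. The nearest peak of either knockout list was a median of 3735 bases from a member's edge. It lay within 500 bases for 45 members (9.0%), as against 11.7% of the other isolated regions and 12.5% of the clustered ones, and over 25 kb away for 38 members. Member 394, inside Dpp4, had a knockout peak 314 bases away, and member 279, inside Zap70, 121 bases away. Member 2, inside St18, had none within 51709 bases and no region of all 4 lists within 25 kb, and member 48, upstream of Cysltr1, none within 69493 bases.

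**Figure D2:**
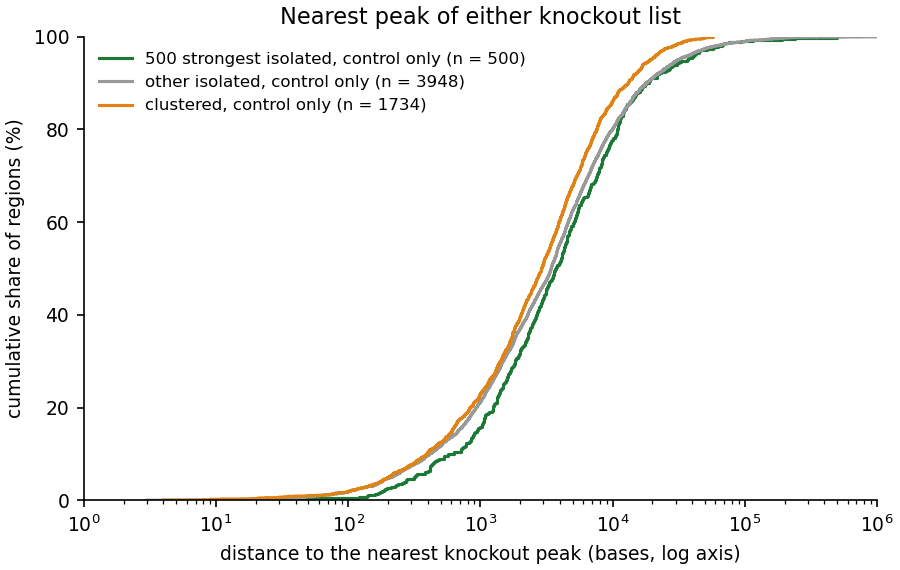
Cumulative share of regions (vertical axis, percent) by distance from the region's edge to the nearest peak of either knockout list (horizontal, bases, log axis), for the 500 members and the other isolated and clustered control-only distal regions. The members' curve lies to the right of the others at short distances, and their median is 3735 bases against 3435 and 2907.

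Chromatin shared by both genotypes around the members went both ways. A median of 3 regions listed in all 4 libraries had their centre within 25 kb of a member, and 64 members had none. For the 1737 shared regions near members, the median log2 ratio of fold enrichment, knockout over control, was 0.041, against 0.018 for all 79684 shared regions. Both knockout values lay below both control values for 26.3% of those near members (24.9% of all shared regions) and above for 33.2% (28.9% of all). A knockout-only region, distal or at a gene start, lay within 25 kb of 151 members, and a control-only region at a gene start within 25 kb of 2. These 2 counts cannot be set against each other. Knockout-only regions numbered 8939 in all, whereas 6182 of the 6458 control-only regions were distal, and the rule bars those from within 25 kb. The same counts were not made around other classes of region. The values around members come from lists of unequal length without read counts, so no test was made.

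The members lay a median of 32.3 kb from the nearest gene start, from 1123 to 634495 bases. Of them, 94 were within 10 kb, 318 within 50 kb and 92 over 100 kb away. The regions in all 4 lists were nearer, with a median of 23971 bases, and the other isolated control-only regions were at 29505 bases. A gene body held 282 members (56.4%), and for 189 this was the gene with the nearest start, while 218 members were outside every gene. Exons and introns were not told apart. The members were spread over the chromosomes, with shares from 2.0% on chromosome X to 8.60% on chromosome 2, against 1.98% and 7.96% of all 4448 eligible regions, and none on Y.

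The 500 regions were nearest to 490 genes, 10 of them with 2 members each and none with more. Starts of 362 members' nearest genes had a peak in all 4 lists within 1 kb, and those of 105 had none. With each gene counted once, 72.7% of the nearest genes had such peaks in all 4 lists, against 58.1% of all genes. For genes tested for RNA the shares were close, 88.8% of nearest genes and 87.5% of all. Among the 300 nearest genes that were tested for RNA and had such start peaks in all 4 lists, both knockout −log10 q values were below both control values for 31 (10.3%), against 5.91% of all tested genes with such peaks, and above for 184 (61.3%), against 66.0%. Most starts near members thus had a higher −log10 q in the knockout lists, as did gene starts in general.

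RNA is the readout that the choice of regions did not use. The labels were checked on the deleted genes first. Tcf7 RNA was at 518 and 510 TPM in control and 13.2 and 12.4 TPM in knockout (log2 change −5.22, SE 0.056, limma adjusted p = 8.64e-06), and its start was 637 kb from the nearest member. Lef1 was at 1.66 and 1.10 TPM in control and 1.46 and 1.57 in knockout (log2 change 0.09, SE 0.259, limma adjusted p = 0.803), so its RNA neither checks nor goes against the label. The labels do not say which part of Lef1 was deleted. Kit and Cd44, which encode markers of the sort, and Ptprc and Notch1, which early T-lineage cells express, were at 77.0 TPM or more in every library. Of these 4, 3 were called lower in knockout, Kit, Ptprc and Notch1, beside 14.7% of all genes tested. Among genes of markers gated against, Cd4 and Cd8b1 were below 1 TPM in all libraries and Cd8a was at 0.942 and 1.98 TPM in control and 0.823 and 1.12 in knockout. Il2ra, which encodes CD25, was at 136 and 133 TPM in control cells sorted as CD25- and at 0.658 and 0.393 TPM in knockout.

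Genes nearest to members went both ways. Of the 490, 338 had a mean of at least 1 TPM and were tested, 74 were lower in knockout (21.9%) and 81 higher (24.0%), and 183 were not called at a limma adjusted p of 0.05. Among all 13228 genes tested, 14.7% were lower and 25.2% higher. The median log2 change of the tested nearest genes was 0.069, and that of all genes 0.093. Median-ratio scaling moves the median of all genes to −0.003. Under it, 91 nearest genes were lower (26.9% of those tested, 19.0% of all genes) and 66 higher (19.5%, 18.5% of all). The balance of directions thus depends on the scaling, among nearest genes and among all genes alike. The share of lower calls was above that of all genes under both scalings, a difference that was not tested. Leaving out control RNA library 2 left 49 lower (14.7% of those tested, 9.06% of all), and leaving out knockout RNA library 1 left 50 higher (14.7%, 15.6% of all).

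Larger changes were present in both directions. A fall of at least 1 on the log2 scale was called for 21 nearest genes (6.21%, against 3.85% of all genes), and a rise of that size for 20 (5.92%, against 3.58%). Of the tested genes nearest to distal regions listed in all 4 libraries, 16.6% were lower and 24.5% higher. Changes of at least 1 were called there for 4.31% (falls) and 3.78% (rises). Around the 3948 other isolated control-only regions, 20.2% of nearest genes were lower and 22.1% higher. The clustered control-only regions had 28.2% lower and 15.1% higher, with a median of −0.074. The 500 strongest isolated knockout-only regions, chosen by the mirrored rule, had 18.1% lower and 27.0% higher. Some genes are nearest to regions of several of these classes, so the shares are not independent, and the differences between them were not tested.

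**Figure D3:**
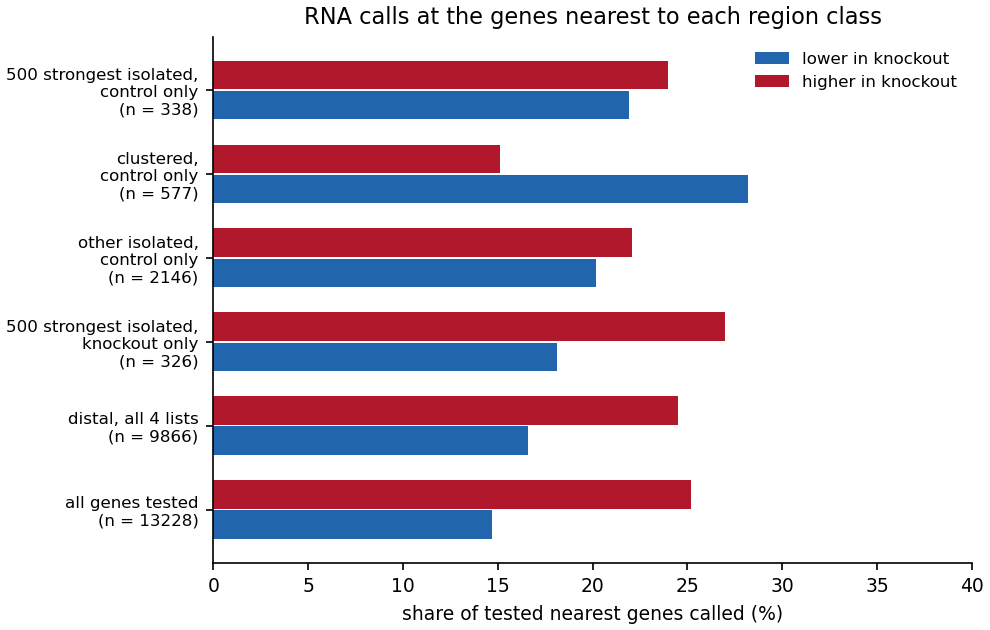
Share of tested genes (horizontal axis, percent) called lower (blue) or higher (red) in knockout RNA at a limma adjusted p of 0.05, among all genes and among the genes nearest to each class of region, with the number tested in brackets. The members' nearest genes had 21.9% lower and 24.0% higher, and the genes nearest to clustered control-only regions 28.2% and 15.1%.

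The lower calls did not gather at the nearest starts. With the nearest start within 10 kb, 18.5% of 65 tested genes were lower and 24.6% higher. From 10 to 50 kb 21.4% of 154 were lower, from 50 to 100 kb 23.5% of 68, and with the start over 100 kb away 27.3% of 55, where 21.8% were higher. These shares by distance were not tested against each other. Among genes nearest to the 100 strongest members, 11 of 62 were lower (17.7%) and 18 higher (29.0%), and among those nearest to the 100 weakest, 18 of 73 were lower (24.7%) and 13 higher (17.8%). Where the member lay inside the nearest gene, 28 of 145 tested genes were lower and 34 higher, and where it lay outside any gene, 35 of 135 were lower and 33 higher. Taking every tested gene with a start within 100 kb of a member, 854 genes, 17.8% were lower and 25.5% higher. All of these shares stand beside 14.7% lower and 25.2% higher among all genes tested, and the shares within 100 kb are near them.

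Not all nearest genes of the 10 strongest members were tested, and 1 of those tested was called. Among all genes tested, 14.7% were lower and 25.2% higher, and so few genes allow no comparison with these shares. The strongest, member 1, lies inside Mast2, which encodes a microtubule-associated kinase, at chr4:116443426-116443868, with −log10 q 170 and 180. Mast2 RNA was at 16.5 and 18.7 TPM in control and 18.1 and 19.1 in knockout (log2 change 0.07, SE 0.106, limma adjusted p = 0.615), so both genotypes overlapped. Member 2, chr1:6519091-6519556 with −log10 q 190 and 167, lies inside St18, a zinc finger transcription factor gene, whose RNA was at 0.305 and 0.290 TPM in control and 0.301 and 0.230 in knockout and was not tested. St18 had no peak at its start in any list, and its 466-base member is thus a strong control peak in a gene that was hardly transcribed in either genotype.

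Member 4 was the widest at 788 bases and the one of the 10 with a called gene. It lies at chr6:115062660-115063447, 25.2 kb upstream of Tamm41, which encodes a mitochondrial enzyme of cardiolipin synthesis. Its first 13 bases overlap the RefSeq promoter window of Gm36190, whose start at 115062422 was not among those used for the distances. Tamm41 was at 20.3 and 23.9 TPM in control and 38.1 and 41.8 in knockout, and rose by 0.83 on the log2 scale (SE 0.108, limma adjusted p = 0.00347). The knockout libraries were both above the control libraries. Of the remaining strongest members, that nearest to Ccdc167 lies inside the RNA-capping methyltransferase gene Cmtr1, that nearest to Il1rl2, an interleukin-36 receptor gene, inside Il1r1, and those nearest to Man1c1, a mannosidase gene, and Metrnl, which encodes a secreted protein, 5.79 and 4.98 kb upstream of them. The log2 changes of these 4 genes were −0.04, 0.43, 0.19 and −0.45, with limma adjusted p from 0.105 for Metrnl to 0.918 for Ccdc167. Padi1, a peptidylarginine deiminase gene, 4933440J02Rik and 1600014C23Rik stayed below the level for testing.

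The largest fall among the nearest genes of members was at Thy1, a surface glycoprotein of T cells and some progenitors. Thy1 RNA was at 44.8 and 40.4 TPM in control and 4.37 and 4.79 TPM in knockout, without overlap, a log2 change of −2.97 (SE 0.114, limma adjusted p = 0.000204) and 9.30-fold in mean TPM. Its member, chr9:44004178-44004484, lies 39.1 kb upstream of the start and is among the weakest, ranked 486th at −log10 q 29.3 and 22.5. The peak at the Thy1 start itself was in all 4 lists, at 12.9 and 15.3 in control and 13.3 and 16.2 in knockout, so the start kept a peak of similar −log10 q while the RNA fell. In bulk RNA such as this, fewer cells of a type and less RNA per cell cannot be told apart.

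Dpp4, the surface peptidase also known as CD26, was at 174 and 180 TPM in control and 20.7 and 23.6 in knockout. Knockout was lower in both libraries, by 2.95 on the log2 scale (SE 0.077, limma adjusted p = 0.000111) or 8.0-fold. Its member, chr2:62390300-62390560, is inside the gene 21.8 kb downstream of the start, at −log10 q 24.9 in both lists. The peak at the start was at 48.4 and 44.9 in control and 33.5 and 42.6 in knockout. The 250 bases before this start are printed because Dpp4 combines a member within its body, a large fall and a lower start −log10 q in both knockout lists. They are written 5′ to 3′ on the − strand.

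Dpp4 start, chr2:62412232-62412481: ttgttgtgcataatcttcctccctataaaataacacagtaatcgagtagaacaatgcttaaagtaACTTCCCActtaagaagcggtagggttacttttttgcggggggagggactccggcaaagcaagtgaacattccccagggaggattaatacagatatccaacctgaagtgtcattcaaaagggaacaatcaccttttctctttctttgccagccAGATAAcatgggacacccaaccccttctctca

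Capitals again mark searched strings, here the ETS string on the other strand at base 66 overlapping an RBPJ string at base 68, and a GATA string at base 219. A TCF/LEF string was in none of these 250 bases, and 7.48% of RefSeq windows of that length held one. Over the whole RefSeq windows, which also include bases after the start, 8.65% of 32851 held a TCF/LEF string, and so did 8.86% of the 361 windows of members' nearest genes. The same letters written in reverse order were in 6.92% and 5.54%. These windows are gene starts and not the members themselves.

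Klf4 was nearest to 2 members, one 59.2 kb and one 549 kb upstream. Klf4, a zinc finger factor of monocyte development and cell quiescence, was at 49.5 and 46.7 TPM in control and 7.21 and 7.49 in knockout (log2 change −2.55, SE 0.093, limma adjusted p = 0.000171). Knockout RNA was lower in both libraries, whereas the −log10 q at the Klf4 start was higher, at 98.2 and 100 in control and 112 and 138 in knockout. Both knockout values were above both control values at 66.0% of tested genes' starts with a peak in all 4 lists. The members themselves, chr4:55591566-55591854 and chr4:56080980-56081345, were at 28.0 and 24.7, and at 32.0 and 36.1.

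Ccl5, a chemokine of T and NK cells, had the closest member among the 10 largest falls, 3.27 kb downstream and within the gene. Its RNA was at 82.9 and 95.4 TPM in control and 17.4 and 23.4 in knockout (log2 change −2.09, SE 0.150, limma adjusted p = 0.000715). Ifitm1, an interferon-induced membrane protein gene, had the highest level of the 10, at 565 and 522 TPM in control and 134 in both knockout libraries (log2 change −2.01, SE 0.049, limma adjusted p = 8.38e-05). The −log10 q of its start peak was lower too, at 76.1 and 87.7 against 57.4 and 59.0. In neither gene did the RNA of the genotypes overlap.

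The rest of the 10 largest falls were at lower levels. Lypd6b, of the Ly6 family, went from 6.21 and 4.72 TPM to 0.255 and 0.630, with its member inside the neighbouring Kif5c. Epcam, an epithelial adhesion molecule, was at 5.06 and 3.79 TPM against 0.496 and 0.141, and Colq, the collagen tail of acetylcholinesterase, at 4.30 and 4.12 against 0.419 and 0.585. Cysltr1, a leukotriene receptor gene, was at 8.53 and 6.10 against 1.21 and 1.60 TPM, with a strong member (−log10 q 75.1 and 71.2) 101 kb upstream. Bcl2l14, a BCL2 family member, was at 29.6 and 29.9 TPM against 9.54 and 8.32, with a member of −log10 q 69.6 and 76.9 at 122 kb. These 5 genes fell by 1.63 to 2.17 on the log2 scale, with limma adjusted p from 0.000618 for Bcl2l14 to 0.00397 for Epcam.

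**Figure D4:**
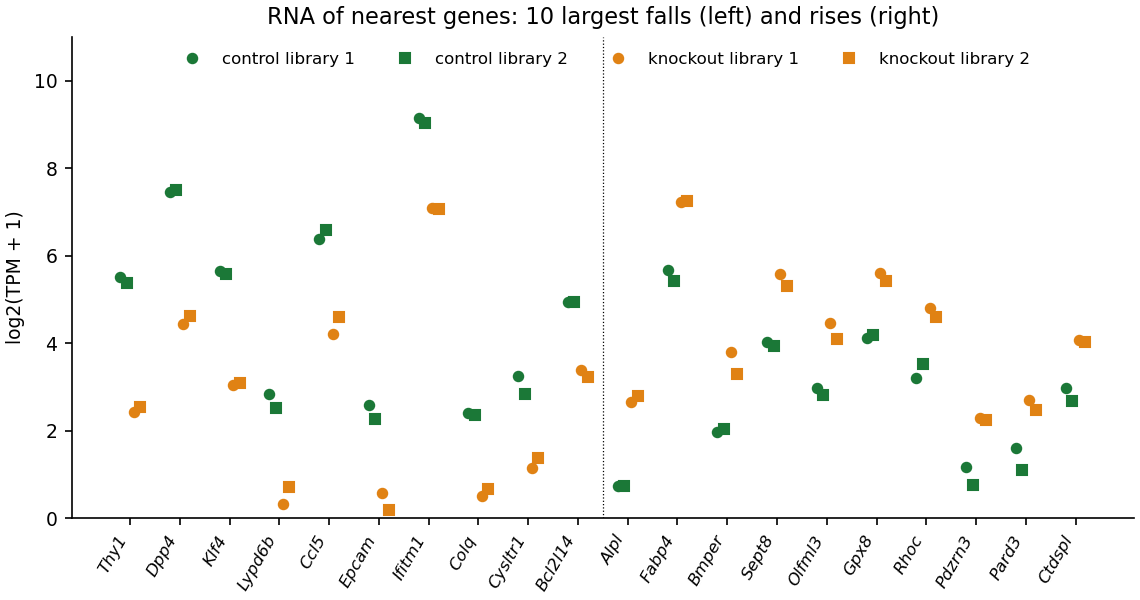
RNA level as log2(TPM + 1) (vertical axis) in each control (green) and knockout (orange) library, circles for library 1 and squares for library 2, for the 10 nearest genes with the largest falls (left of the dotted line) and the 10 with the largest rises (right). The genes were chosen for their size of change and for non-overlapping libraries, with falls from −2.97 at Thy1 to −1.63 at Bcl2l14 and rises from 1.99 at Alpl to 1.22 at Ctdspl.

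Other members, listed in control alone, had a nearest gene with more RNA in knockout. Alpl, tissue-nonspecific alkaline phosphatase, was at 0.673 and 0.669 TPM in control and 5.31 and 5.98 in knockout (log2 change 1.99, SE 0.210, limma adjusted p = 0.00193), 8.41-fold higher in mean TPM. Its member, chr4:137762815-137763203 at −log10 q 54.3 and 73.2, lies inside the gene 33.4 kb from the start. Both knockout libraries exceeded both control libraries. The −log10 q of the start peak was also higher, at 24.9 and 29.6 in control and 30.2 and 46.2 in knockout, as at most tested starts.

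Fabp4, a fatty acid binding protein of adipocytes and macrophages, showed opposite listings within one gene. Its RNA was at 50.2 and 41.5 TPM in control and 148 and 151 in knockout (log2 change 1.69, SE 0.095, limma adjusted p = 0.000425), without overlap. Its member, chr3:10205133-10205416, 3.30 kb downstream of the start, was listed in control alone at −log10 q 36.4 and 46.4. A peak at the start was listed in the knockout lists alone, at 10 and 17. Bmper, a secreted modulator of bone morphogenetic proteins, was at 2.91 and 3.14 TPM in control and 12.9 and 8.75 in knockout, with its member 234 kb inside the gene (log2 change 1.53, SE 0.216, limma adjusted p = 0.00443).

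The next 5 rises were at moderate levels. Sept8, a septin gene, was at 15.3 and 14.3 TPM in control and 46.9 and 38.8 in knockout, 2.82 kb from its member. Olfml3, a matrix protein gene, was at 6.89 and 6.06 against 21.1 and 16.2 TPM, 2.56 kb from its member inside Hipk1. Gpx8, an endoplasmic reticulum peroxidase gene, was at 16.2 and 17.2 against 47.5 and 41.7 TPM, and Rhoc, a small GTPase gene, at 8.21 and 10.5 against 26.7 and 23.2. Ctdspl, a phosphatase gene, was at 6.93 and 5.40 against 15.9 and 15.3 TPM. These 5 genes rose by 1.22 to 1.47, with limma adjusted p from 0.000685 for Gpx8 to 0.00302 for Ctdspl.

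Pdzrn3, a ubiquitin ligase gene, and Pard3, a cell polarity gene, complete the 10. Pdzrn3 was at 1.26 and 0.697 TPM in control and 3.87 and 3.74 in knockout (log2 change 1.30, limma adjusted p = 0.0118), and Pard3 at 2.04 and 1.16 against 5.54 and 4.53 (1.23, limma adjusted p = 0.0149). Neither call held without knockout RNA library 1, where limma adjusted p was 0.0654 for Pdzrn3 and 0.0825 for Pard3. Pdzrn3 also lost its call without knockout RNA library 2 (0.0564), and Pard3 without control RNA library 2 (0.0587).

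RNA of the stromal layer moved in the same direction as these rises. All 7 markers of the monolayer (Dll1, Col1a1, Col1a2, Acta2, Postn, Mgp and Cxcl12) rose, and their summed level was 634 and 639 TPM in control and 1745 and 1436 TPM in knockout. None was at 0 in any library, and none was the nearest gene of a member. Of 6 mast cell and basophil markers, 5 rose and 1, Cpa3, fell, and their sum was 214 and 212 TPM in control and 386 and 392 in knockout. Of 5 neutrophil and monocyte markers, 3 rose, with sums of 1284 and 1283 against 2781 and 2703 TPM. Beside these counts, 14.7% of all genes tested were lower and 25.2% higher. B-lineage markers summed to at most 1.96 TPM in every library, with Pax5 at 0 in both control libraries, and Hba-a1, an erythroid marker, was at 0 throughout. Hbb-bt, the 1 of 4 erythroid markers that was tested, was not called and was at 111 and 16.0 TPM in control and 13.5 and 0.788 in knockout, with control library 1 far above the other 3. The part of these cell types in the rises near members was not tested.

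**Figure D5:**
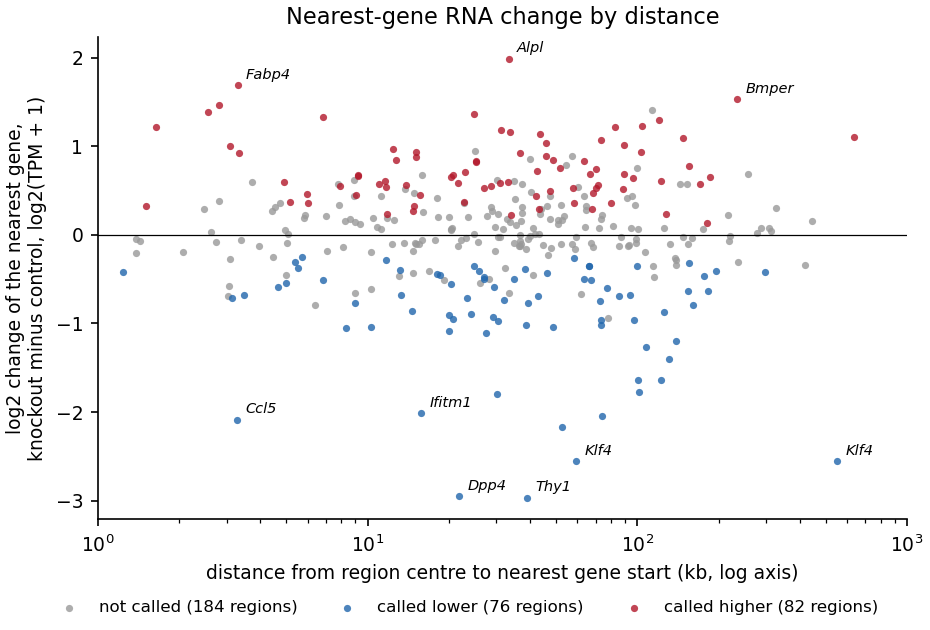
Log2 change of the nearest gene's RNA, knockout minus control on log2(TPM + 1) (vertical axis), against the distance from the member's centre to the gene's start (horizontal, kb, log axis), one point per member with a tested gene. Called genes lie on both sides of 0 across the range of distances, and Klf4 appears at both 59.2 and 549 kb.

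Some members lay nearest to genes of the T-lineage list. Of 32 genes in the T-lineage list, 27 were tested and 23 were lower and 0 higher (14.7% lower and 25.2% higher among all genes), with a median log2 change of −1.72. The list includes Tcf7, Lef1 and Il2ra. Of the 32, 4 (12.5%) were the nearest gene of a member, Thy1, Rag2, Prkcq and Zap70. Among all 24538 genes 490 were (2.0%), and the difference was not tested. Shares above 2.0% were not particular to this list. They were 9.09% for Notch targets, 7.69% for stem and progenitor genes, 5.56% for NK and innate lymphoid genes and 4.35% for myeloid genes. The TCF/LEF partners and the factors behind the searched strings were also above 2.0%. Each of these 6 shares rests on 1 or 2 genes. The mast cell and basophil, B-lineage and stromal lists held no such gene. Rag2, which encodes a subunit of the antigen receptor recombinase, was at 6.25 and 4.99 TPM in control and 2.13 and 2.64 in knockout (log2 change −0.96, SE 0.205, limma adjusted p = 0.0166), with its member 73.2 kb upstream. That call did not hold without control RNA library 1 (0.0923) or knockout RNA library 1 (0.0696, limma adjusted p). Rag1, the partner subunit and no nearest gene of a member, has its start 98.0 kb from one and was at 7.72 and 7.15 against 1.0 and 1.04 TPM (log2 change −2.06, SE 0.189, limma adjusted p = 0.00130).

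Prkcq, the kinase that relays T cell receptor signals, was at 20.1 and 22.6 TPM in control and 13.1 and 11.7 in knockout (log2 change −0.74, SE 0.116, limma adjusted p = 0.00621), with a member inside the gene 32.1 kb from its start. The −log10 q of the start peak was also below control in both knockout lists, at 57.8 and 69.2 against 49.7 and 47.5. Zap70, another kinase of that pathway, was at 1.03 and 0.309 TPM in control and 0.891 and 0 in knockout and was not tested. Its member, of −log10 q 31.6 and 30.5, was 5.61 kb inside the gene, where the start had no peak in any list.

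Notch3, a Notch receptor and a target of Notch signalling, was the 1 gene of the 11 Notch targets nearest to a member, which lies inside it 14.6 kb from the start. It was at 11.9 and 13.0 TPM in control and 7.25 and 5.66 in knockout (log2 change −0.86, SE 0.159, limma adjusted p = 0.0105). The call did not hold without control RNA library 1 (limma adjusted p = 0.0540) or control RNA library 2 (0.0688). Of the 9 Notch targets tested, 6 were lower and 0 higher (14.7% lower and 25.2% higher among all genes), with a median of −0.86.

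Runx1 and Erg, factors of stem and progenitor cells, were both lower in knockout. Runx1 was at 102 and 94.9 TPM in control and 64.3 and 61.8 in knockout (log2 change −0.63, SE 0.061, limma adjusted p = 0.00142), with its member 154 kb upstream and no shared region within 25 kb of that member. Erg was at 63.1 and 65.5 TPM against 44.7 and 45.4 (log2 change −0.50, SE 0.060, limma adjusted p = 0.00265). Its member, inside the gene and ranked 26th at −log10 q 87.0 and 94.6, was the strongest next to a listed gene, and the peak at the Erg start went from 64.9 and 61.2 to 47.2 and 43.4. Of the 26 stem and progenitor genes, 11 were lower and 12 higher, and of 25 transcription factors behind the searched strings, 12 were lower and 5 higher. Of all genes tested, 14.7% were lower and 25.2% higher.

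Tle3, a corepressor that TCF/LEF factors recruit, was at 106 and 97.8 TPM in control and 59.5 and 57.8 in knockout (log2 change −0.79, SE 0.063, limma adjusted p = 0.00092), with a member 161 kb downstream. Of 9 tested TCF/LEF factors and partners, Tcf7 among them, 3 were lower and 2 higher. Il18r1, a receptor gene of innate lymphocytes with a member 1.39 kb upstream, was at 4.44 and 3.66 TPM against 3.22 and 3.53 (log2 change −0.20, SE 0.191, limma adjusted p = 0.433). Of 11 tested NK and innate lymphoid genes, 8 were lower and 1 higher, of 23 myeloid genes 6 were lower and 9 higher, of 14 mast cell and basophil genes 1 and 12, of 4 B-lineage genes 2 and 1, and of 14 stromal genes 0 and 12, beside 14.7% lower and 25.2% higher among all genes. Klf4 was the one myeloid gene nearest to a member, and no gene of the last 3 lists was.

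Of the 10 genes nearest to 2 members, 4 had enough RNA to be tested. Erbin, a scaffold protein of cell junctions, was at 190 TPM in both control libraries and at 119 and 115 in knockout (log2 change −0.69, SE 0.043, limma adjusted p = 0.000521), between members 85.8 kb upstream and 43.0 kb downstream of its start. Klf4 fell as given above, and Ankrd50 had a log2 change of −0.11 (SE 0.160, limma adjusted p = 0.626). Plpp1, a lipid phosphatase gene, was at 3.27 and 3.23 TPM against 6.53 and 5.10 (log2 change 0.67, SE 0.189, limma adjusted p = 0.0390), with members of −log10 q 72.3 and 80.6, and 29.0 and 38.1. The Plpp1 call did not hold without any 1 of the RNA libraries (limma adjusted p 0.0584 to 0.172). The other 6 genes, 2310008N11Rik, 4921525O09Rik, 9130015A21Rik, Gm6498, Lgr6 and Tril, were below the level for testing.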

How the data were processed

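RNA-seq and ATAC-seq libraries were grouped by their titles. The members, gene lists, tests and naming rule were chosen with earlier results of these data known. Per the submitters' processing notes, HISAT2 and StringTie (RNA) and Bowtie2 and MACS2 (ATAC-seq) were used on mm10, with no versions; settings are not stated in the labels. The deposited RNA tables give TPM, which sums to 1000000 per library, FPKM, used as an alternative, and coverage, a signal per base that was not used, per the file headers. The authors' peak lists, 1 per library, give a fold enrichment (a ratio), −log10 p and −log10 q for each peak; lists without counts leave the ATAC depth unknown, and no ATAC test was made. Counting error per gene could not be given either.

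Peaks were merged and measured with pandas 2.3.3. A region's value in a list is the highest of its peaks, and distances run from its centre to the nearest start, while the 1 kb and 25 kb limits define distal and isolated. TPM of entries with the same gene name were summed. RNA was fitted with limma 3.58.1 in R 4.3.3 on log2(TPM + 1), a scale that understates changes of low genes, in the 13228 genes whose mean TPM reached 1. Genotype was the single term, and Benjamini-Hochberg adjustment ran over all of them with a threshold of 0.05. On simulated libraries of these 13228 genes, log2 changes of 1 were recovered for 96.0% of changed genes and those of 2 for 100%, with 13 unchanged genes called. The simulated noise depended on expression level alone, and far fewer genes were changed than were called in the data. These rates therefore do not give the recovery in the real libraries. Named were the 10 strongest members with their nearest genes, both deleted genes, the called nearest genes with the 10 largest falls and the 10 largest rises (named models and non-overlapping libraries), nearest genes on a list, and genes nearest to 2 members. Alternatives covered the pseudocount, filter, scaling, replicate number as a block, each library left out, the peak threshold, merging, distance limits and ranking. Promoter windows were matched by symbol for 361 of 490 nearest genes.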

Additional observations from a re-analysis of the deposited data

How the results depend on the processing

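The choice of regions and the RNA scaling moved several values. The median log2 change of tested nearest genes was 0.069, against 0.093 for all genes tested. It was 0.041 with FPKM (all genes 0.075) and 0.014 with the minimum mean at 5 TPM (all genes 0.109). Median-ratio scaling gave −0.025 (all genes −0.003), no filter −0.016 (all genes 0.004) and quantile normalization 0.008 (all genes 0.030). Beside the same 0.093, peaks of −log10 q of at least 10 gave 0.038 and isolation of 10 kb 0.033. Nearest genes thus stayed below all genes in these settings, a difference that was not tested. Their median ran from 0.010 to 0.083 when 1 RNA or ATAC library was left out. With peaks of −log10 q of at least 10, 252 of the 500 members were found again, and 3936 regions were eligible, against 4448. Regions with a weaker knockout peak can then count as control-only, and those with a weaker control peak no longer do. What displaced each member was not counted. Leaving out 1 ATAC library, 382 to 409 were found again among 5468 to 6335 eligible regions. With the nearest tested gene taken, 114 of 486 were lower (23.5%) and 112 higher (23.0%). With the nearest start within 50 kb, which tests fewer genes, 45 of 218 were lower (20.6%) and 52 higher (23.9%). Both stand beside 14.7% lower and 25.2% higher among all genes. Leaving out 1 RNA or ATAC library gave 49 to 77 lower and 50 to 88 higher. Quantile normalization gave 86 lower (25.4% of those tested, 17.4% of all genes) and 71 higher (21.0%, 19.7% of all). The fit with the replicate number as a block gave 69 lower (20.4% of those tested, 13.6% of all genes) and 78 higher (23.1%, 23.2% of all). The RNA deviations of control 1 and knockout 1 correlated at r = 0.004 across genes. With 2 libraries per genotype this cannot show whether libraries of the same number share an origin. Of the 31 named called genes, 5 lost the call under at least 1 alternative and 0 reversed; without filtering, under median-ratio scaling and with the block, Plpp1 lost it (limma adjusted p 0.0934, 0.0564 and 0.0561). Among genes not called, Lef1 was −0.08 to 0.26 when 1 library was left out and reversed without control RNA library 2, Mast2 was −0.02 with median-ratio scaling and −0.01 to 0.16 when 1 library was left out (lowest without control RNA library 1), and Ccdc167 ranged from −0.38 to 0.31, with 0.10 without control RNA library 2 and 0.31 without knockout RNA library 1. Where 1 library of a genotype is left, it is assumed to vary like the others. Other windows and strings for the TCF/LEF search over members were not run, and without read counts the depth of the ATAC lists sets an unknown limit on what a missing peak means.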

Other observations

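Beyond the nearest genes, several genes with a start within 100 kb of a member fell strongly, chosen here after their values were seen. Cd160, a surface receptor of NK and innate lymphoid cells 71.0 kb from a member, was at 14.9 and 19.5 TPM in control and 2.17 and 1.88 in knockout (log2 change −2.58, SE 0.185, limma adjusted p = 0.000707). Cxcl5, a chemokine gene 14.8 kb from a member, was at 22.6 and 19.3 TPM against 4.18 and 2.23 (log2 change −2.42, SE 0.251, limma adjusted p = 0.00182). Endou, a ribonuclease gene 49.6 kb from a member, was at 13.5 and 12.9 TPM against 2.72 and 1.34 (log2 change −2.27, SE 0.254, limma adjusted p = 0.00228). Knockout RNA was below control in both libraries for each of them. Among all 854 tested genes within that distance, 152 were lower (17.8%) and 218 higher (25.5%), beside 14.7% and 25.2% of all genes tested.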
